A study of Mus musculus with 8 samples.

Results

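The 9 genes described here encode the mitochondrial enzymes that carry the carbon of valine and isoleucine to propionyl-CoA and on to succinyl-CoA. They were chosen by gene symbol, not by their values, and are Acadsb, Acad8, Hibch, Hibadh, Aldh6a1, Pcca, Pccb, Mcee and Mmut, 9 of the 18395 genes in the deposited count table. The table holds 8 RNA-seq libraries of whole mouse adipose tissue: 4 carry a knockout of Kindlin-2 specific to brown adipocytes (KO) and 4 are the control group, with genotype given as WT. Kindlin-2, the product of Fermt2, is an adaptor that binds integrins at cell adhesions. Mice of both groups had been at 4 °C for 6 hours, so no library shows the tissue without cold. The labels name neither the fat depot nor the driver of the deletion, and no age is given. The comparison asks how loss of Kindlin-2 in brown adipocytes alters the tissue under cold. No label says that replicates were separate animals, so each p-value measures the spread between these samples.

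Brown adipocytes burn branched-chain amino acids as well as fat and sugar when they make heat. After transamination and oxidative decarboxylation, valine becomes isobutyryl-CoA and isoleucine becomes 2-methylbutyryl-CoA. Acad8 and Acadsb are the acyl-CoA dehydrogenases that oxidise these thioesters. Hibch, Hibadh and Aldh6a1 then act in sequence on the valine branch alone, and both branches yield propionyl-CoA. Propionyl-CoA carboxylase, built from Pcca and Pccb, the epimerase Mcee and the cobalamin-dependent mutase Mmut turn propionyl-CoA into succinyl-CoA, which enters the tricarboxylic acid cycle.

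With all 8 libraries each of the 9 transcripts averaged less in KO than in WT, with log2 fold changes between -0.80 for Mmut and -0.21 for Mcee, whereas 49.5% of all genes tested lay below 0. Their median was -0.66, against 0.00362 over the 13901 genes tested. None of the 9 passed an adjusted p of 0.05 in edgeR's quasi-likelihood test, which called 0% of all genes tested. At an unadjusted p under 0.05, 8 of the 9 were lower in KO, against 11.1% of all genes tested that were lower and 21.5% that differed in either direction at that level. At an adjusted p under 0.10, 5 of the 9 were lower, against 1.09% of all genes. Libraries were scaled with edgeR's TMM factors. With total library size alone the median of all genes moved to 0.26, the median of the 9 was -0.41, and Mcee lay at 0.04. On that scaling edgeR called Mmut alone of the 9 (0.173% of all genes were called lower), and 5 of the 9 were lower at an unadjusted p under 0.05 (2.42% of all genes).

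Depth was similar between the groups, with 35734373 to 40927141 counts per KO library and 33672272 to 43253559 per WT library. Each of the 9 genes had at least 1966 counts in every library, so counting error was small beside the spread between libraries. All 9 passed the filter on low counts. Fermt2, measured to check the labels, had 192, 132, 173 and 174.5 counts per 1000000 (CPM) in KO replicates 1 to 4, against 239, 234.5, 244 and 201 CPM in WT replicates 1 to 4. Its edgeR adjusted p of 0.134 missed the threshold, but no gene tested passed it in that fit, so the miss cannot decide the check. The adjusted p of Fermt2 was 0.0336 in DESeq2 and 0.0529 in limma-voom with sample quality weights. No KO library reached the WT range. Brown adipocyte transcripts marked the tissue in every library: Ucp1, which uncouples respiration to make heat, stood at 1792 to 4301 CPM in KO and at 5082 to 6576 CPM in WT. WT replicate 3 carried skeletal muscle RNA, with 3.48% of counts in 10 muscle genes against at most 0.0274% in any other library. KO replicate 2 carried an interferon response, with 0.262% of counts in 9 such genes against at most 0.0292% elsewhere. Results are therefore also given without these libraries, as a 6-library comparison with 3 libraries per group.

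In that comparison 6 of the 9 genes fell at an adjusted p under 0.05 in edgeR: Acadsb, Hibch, Hibadh, Aldh6a1, Pcca and Mmut. The share of all genes called there was 1.5% for lower and 3.32% for either direction. WT replicate 3 was the lowest WT library for all 9 genes, so leaving it out raised the WT mean of each. Leaving out a single library, edgeR called 4 of the 9 without KO replicate 2 (0.95% of all genes were called lower) and 0 of the 9 without any other library (at most 0.0216%, reached without WT replicate 4). The same 6 genes were called lower by DESeq2 with all 8 libraries, where 4.71% of all genes with an adjusted p were, and by limma-voom with sample quality weights, where 3.62% were. Limma-voom without weights called 0 of the 9, and 0% of all genes tested were called lower there. Acad8, Pccb and Mcee were not called by any of these fits.

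**Figure D1:**
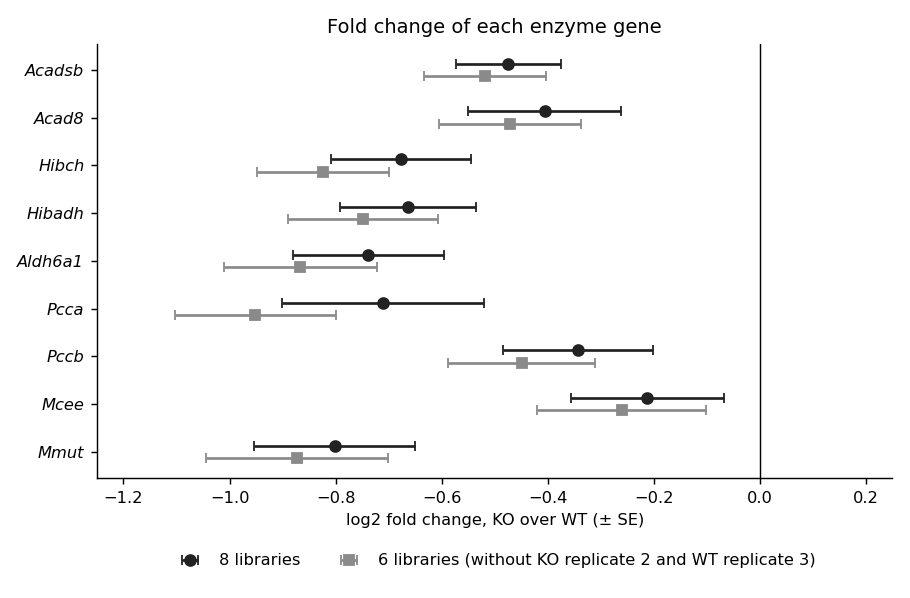
Log2 fold change, KO over WT, of each of the 9 enzyme genes (horizontal axis), with bars of 1 SE from edgeR, for all 8 libraries (black circles) and for the 6 libraries left without KO replicate 2 and WT replicate 3 (grey squares). With 8 libraries the points run from -0.80 for Mmut to -0.21 for Mcee, and every grey point lies left of its black one. WT replicate 3, left out of the grey points, was the lowest WT library for all 9 genes.

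The upstream promoters of the valine and propionate genes were read for elements of factors known to act on mitochondrial or cold-responsive genes, because the transcripts lay lower together. RefSeq windows of build GRCm38.p6, from 250 bases before to 50 bases after the start site, were found for 8 of the 9 genes. Both strands were searched, and the background is the share of 27025 genes with a window that held the element in any of their windows. The GC-rich element of nuclear respiratory factor 1 was found in Hibadh and Pccb, 2 of the 8, and in 5.19% of all genes. The oestrogen-related receptor element TCAAGGTCA was found in 0 of the 8 and 0.466% of all genes, and the cyclic AMP response element TGACGTCA in 0 of the 8 and 2.03%. The direct repeat bound by PPAR with RXR, which shares AGGTCA with the receptor element above, was found in 0 of the 8 and 0.0481%. CCAAT was found in 5 of the 8 and 41.1%. The stretches that hold the 2 nuclear respiratory factor matches run from base -150 to base -31, with the match in capitals. The Hibadh stretch lies at chr6:52640331-52640450 on the minus strand and the Pccb stretch at chr9:101034915-101035034 on the minus strand.
Hibadh: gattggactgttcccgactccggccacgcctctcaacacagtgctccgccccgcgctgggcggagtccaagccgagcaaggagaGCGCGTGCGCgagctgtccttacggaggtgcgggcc
Pccb: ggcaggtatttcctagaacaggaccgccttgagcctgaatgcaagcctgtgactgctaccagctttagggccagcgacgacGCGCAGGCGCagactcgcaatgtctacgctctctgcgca
The match begins at base -66 in Hibadh, on the strand opposite to the gene, and at base -69 in Pccb. Of these genes, Hibadh differed by -0.66 ± 0.13 and Pccb by -0.34 ± 0.14 (SE) between KO and WT on the log2 scale. A match of letters describes the sequence and does not show that a factor binds.

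The acyl-CoA dehydrogenases open both branches. Acadsb (ENSMUSG00000030861, chromosome 7), which oxidises 2-methylbutyryl-CoA from isoleucine, had 138.5, 141.5, 147 and 130.5 CPM in KO replicates 1 to 4, against 189, 196, 179 and 211 CPM in WT replicates 1 to 4. No KO library reached the lowest WT library, and the KO values spread little, with an SD of 6.93 CPM (n = 4). Its log2 fold change was -0.47 ± 0.10 (SE), with an edgeR adjusted p of 0.0981, and -0.52 ± 0.11 with 6 libraries (adjusted p = 0.0457). Acad8 (ENSMUSG00000031969, chromosome 9), which oxidises isobutyryl-CoA from valine, had 58.8, 61.2, 74.8 and 68.1 CPM in KO and 81.9, 101, 68.8 and 96.3 CPM in WT. The groups overlapped, because WT replicate 3 lay below KO replicate 3. Its log2 fold change was -0.41 ± 0.14 with 8 libraries and -0.47 ± 0.13 with 6, with edgeR adjusted p of 0.170 and 0.0828.

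The 3 enzymes that act after Acad8 on the valine branch alone gave a narrow range of differences, which did not include Acad8 at -0.41. Hibch (ENSMUSG00000041426, chromosome 1), the hydrolase that frees 3-hydroxyisobutyrate from CoA, had 142, 189, 170 and 147 CPM in KO libraries and 253, 284, 224 and 275.5 CPM in WT libraries. Hibadh (ENSMUSG00000029776, chromosome 6), the dehydrogenase that oxidises this free acid, had 258, 332, 348 and 304 CPM in KO and 485, 528, 439 and 514.5 CPM in WT. Aldh6a1 (ENSMUSG00000021238, chromosome 12), which converts methylmalonate semialdehyde to propionyl-CoA, had 334, 375, 370.4 and 278 CPM in KO and 551, 634, 473 and 606 CPM in WT. For none of these 3 genes did any KO library reach the WT range. The log2 fold changes were -0.68 ± 0.13 for Hibch, -0.66 ± 0.13 for Hibadh and -0.74 ± 0.14 for Aldh6a1 (SE), each with an edgeR adjusted p of 0.0915. KO levels thus stood at 62.5%, 63.1% and 60.0% of WT levels. With 6 libraries the log2 fold changes were -0.82, -0.75 and -0.87, with adjusted p of 0.0290, 0.0349 and 0.0313.

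Propionyl-CoA carboxylase is a biotin enzyme of alpha and beta chains. Pcca (ENSMUSG00000041650, chromosome 14), the alpha chain to which biotin is attached, had 88.8, 133, 118 and 93.8 CPM in KO libraries, against 168, 201, 128 and 212.5 CPM in WT libraries. KO replicate 2 lay above WT replicate 3, and the other 3 KO libraries lay below all WT libraries. Its log2 fold change was -0.71 ± 0.19 (edgeR adjusted p = 0.118), and -0.95 ± 0.15 without the libraries that overlapped, which are those left out of the 6-library comparison (adjusted p = 0.0290). Pccb (ENSMUSG00000032527, chromosome 9), the beta chain that carries the carboxyl transfer, had 318, 378, 410.2 and 370 CPM in KO and 457, 520.1, 374 and 522 CPM in WT. WT replicate 3 lay within the KO range, and 2 KO libraries lay below all WT libraries. Pccb differed by -0.34 ± 0.14 with 8 libraries and by -0.45 ± 0.14 with 6, with edgeR adjusted p of 0.207 and 0.0990.

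The last steps turn methylmalonyl-CoA into succinyl-CoA. Mcee (ENSMUSG00000033429, chromosome 7), the epimerase, had 51.1, 63.9, 76.7 and 70.3 CPM in KO libraries and 73.7, 86.9, 66.1 and 76.7 CPM in WT libraries. The groups overlapped, and the log2 fold change of -0.21 ± 0.14 (edgeR adjusted p = 0.399) missed the threshold, and with total library size alone it was 0.04. Mmut (ENSMUSG00000023921, chromosome 17), the mutase that needs adenosylcobalamin, had 45.3, 63.7, 73.3 and 58.4 CPM in KO and 101, 106, 95.5 and 117 CPM in WT. No KO library reached the WT range. Mmut had a log2 fold change of -0.80 ± 0.15 with 8 libraries, the lowest of the 9, and of -0.87 ± 0.17 with 6, where Pcca was lower (edgeR adjusted p for Mmut = 0.0915 and 0.0364). With 8 libraries KO stood at 57.4% of the WT level. Of all genes tested, 4.77% had a lower fold change than Mmut and 28.0% had a lower one than Mcee.

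**Figure D2:**
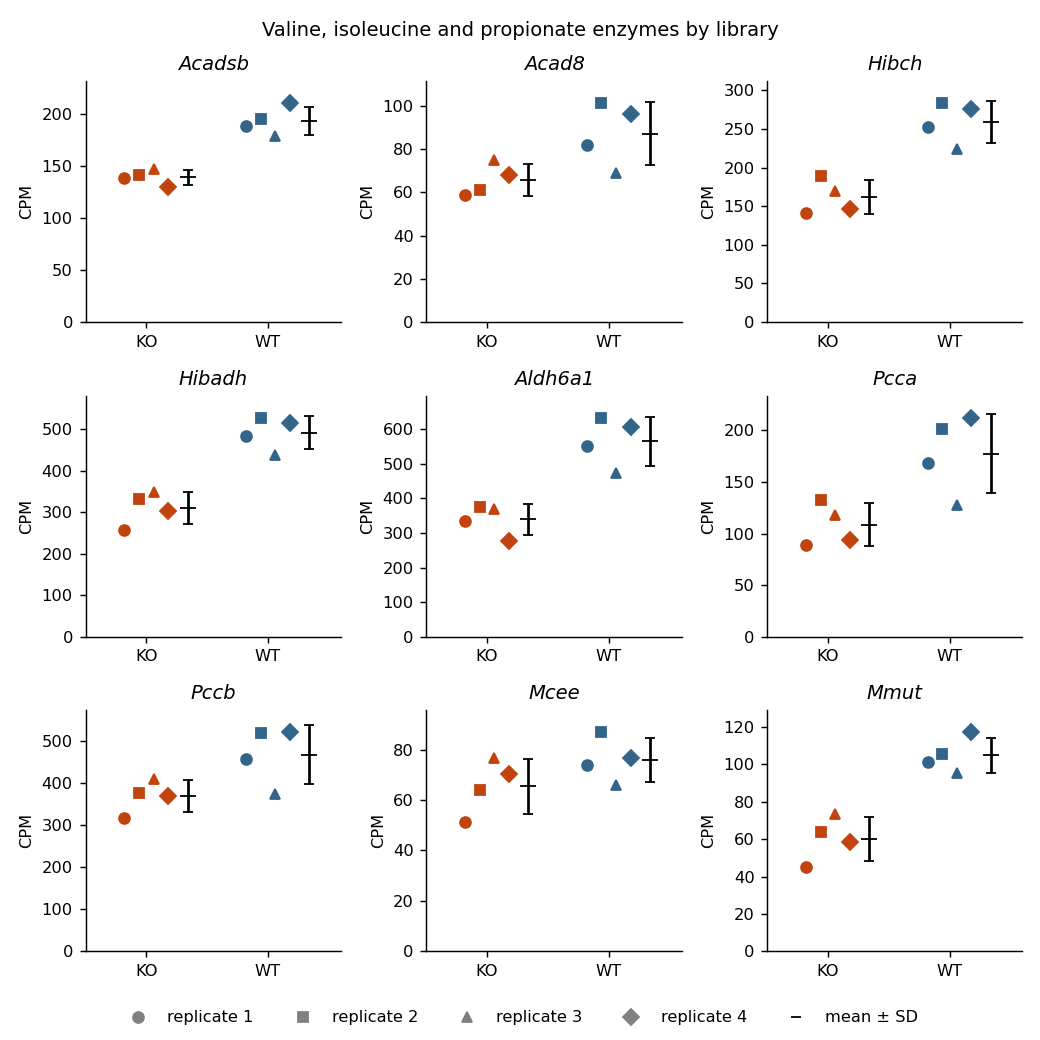
Level in CPM (vertical axes, from 0) of each of the 9 enzyme genes in KO (red, left) and WT (blue, right) libraries, with a symbol for each replicate number and the mean ± SD in black. KO libraries lie below all WT libraries for Acadsb, Hibch, Hibadh, Aldh6a1 and Mmut, whereas the groups overlap for Acad8, Pcca, Pccb and Mcee.

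Without overlap between groups, 5 of the 9 genes were lower in KO, against 7.56% of all genes tested. WT replicate 3 decided this count: without it 8 of the 9 showed no overlap (10.8% of all genes), and in the 6-library comparison 8 did (15.3% of all genes). Mcee was the gene that still overlapped. Total library size alone left 3 of the 9 without overlap, against 1.17% of all genes on that scaling.

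The 9 transcripts varied together from library to library. KO replicate 1 was the lowest of all 8 libraries for 7 of the 9 genes, and KO replicate 4 for the remaining 2, Acadsb and Aldh6a1. Against the WT mean, the median of the 9 genes was -0.75, -0.45, -0.50 and -0.69 on the log2 scale in KO replicates 1 to 4. Among the WT libraries, WT replicate 3 was the lowest for all 9 genes, with a median of -0.20, and WT replicates 2 and 4 were the highest for 5 and 4 genes. Summed, the 9 genes took 0.166%, 0.190%, 0.187% and 0.165% of all counts in KO replicates 1 to 4, and 0.215%, 0.252%, 0.179% and 0.242% in WT replicates 1 to 4, before any scaling. On that unscaled measure WT replicate 3 lay within the KO range and the other 3 WT libraries lay above all KO libraries. Pearson's r of each gene with the mean of the other 8 over the 8 libraries ranged from 0.920 to 0.978 for 8 genes and was 0.762 for Mcee. These are descriptions over libraries that also differ by genotype.

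**Figure D3:**
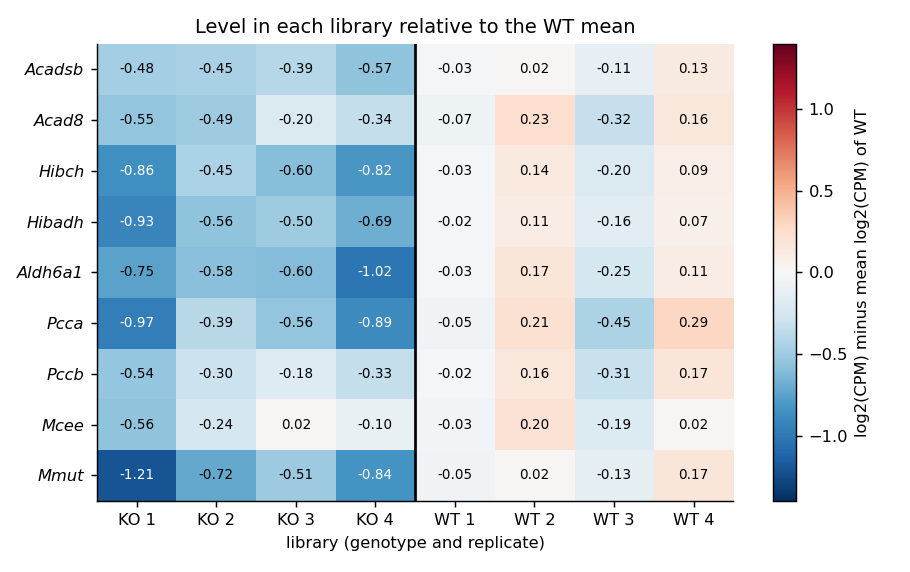
Level of each enzyme gene (rows) in each library (columns, KO replicates 1 to 4 then WT replicates 1 to 4) as log2 CPM minus the mean log2 CPM of the WT libraries, with blue for lower and red for higher. Mmut in KO replicate 1 has the lowest value, -1.21, and Mcee in KO replicate 3 is the one KO value above 0, at 0.02.

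Levels of different genes were compared per kilobase of the principal transcript in GENCODE M21. In KO libraries Hibadh had 170 ± 21.6 CPM per kilobase, Pccb 159 ± 16.4, Aldh6a1 99.8 ± 13.2, Hibch 88.5 ± 12.0 and Mcee 79.1 ± 13.2 (SD, n = 4). Pcca followed with 41.8 ± 8.01, then Acad8 with 23.0 ± 2.52, Acadsb with 22.9 ± 1.14 and Mmut with 16.4 ± 3.18 CPM per kilobase. In KO the library ranges of Hibadh and Pccb overlapped, as did those of Aldh6a1, Hibch and Mcee in that order and those of Acad8 and Acadsb; Pccb and Aldh6a1, Mcee and Pcca, Pcca and Acad8, and Acadsb and Mmut were apart. In WT libraries the levels were 269 ± 21.7 CPM per kilobase for Hibadh, 202 ± 30.0 for Pccb, 167 ± 20.9 for Aldh6a1, 142 ± 14.6 for Hibch and 91.6 ± 10.4 for Mcee (SD, n = 4). Pcca had 68.5 ± 14.7, Acadsb 31.9 ± 2.22, Acad8 30.5 ± 5.13 and Mmut 28.6 ± 2.53 CPM per kilobase in WT. In WT the ranges of Hibadh and Pccb were apart, as were those of Hibch and Mcee and of Pcca and Acadsb, and all other neighbours in the order overlapped. The order depends on the transcript length used: over all annotated exons of a gene, Hibadh had 30.5 CPM per kilobase in KO and 48.3 in WT and came behind Pccb, Aldh6a1 and Mcee in both groups. The alpha chain Pcca was at a lower level per length than the beta chain Pccb in both groups, with either length.

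To compare partners free of library scaling, the ratio of counts was taken within each library for 4 pairs, and KO was set against WT by an exact permutation test, two-sided, adjusted over the 4 pairs. Mcee over Mmut had a log2 ratio of 0.17, 0.0040, 0.06 and 0.27 in KO replicates 1 to 4, against -0.46, -0.28, -0.53 and -0.61 in WT replicates 1 to 4. All 4 KO ratios lay above all 4 WT ratios. The difference was 0.60 ± 0.09 (SE), with an exact p of 0.0286, the smallest that 4 against 4 libraries can give, and an adjusted p of 0.114. Pcca over Pccb had log2 ratios of -1.84, -1.51, -1.79 and -1.98 in KO and -1.44, -1.37, -1.55 and -1.30 in WT. In 3 of 4 KO libraries this ratio lay below all WT libraries, and the exception was KO replicate 2. The difference of -0.37 ± 0.11 had an exact permutation p of 0.0571 (adjusted 0.114), and it was -0.50 with 6 libraries.

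The ratios of the other pairs overlapped between the groups. Hibch over Hibadh, successive steps of valine breakdown, averaged -0.94 ± 0.12 in KO and -0.93 ± 0.03 in WT (SD, n = 4 each; exact permutation p = 0.886, adjusted 0.886). That difference was -0.01 ± 0.06 (SE), and its sign changed when KO replicate 3 or 4 was left out. Acadsb over Acad8 averaged 1.09 ± 0.15 in KO and 1.17 ± 0.18 in WT (SD, n = 4 each; exact permutation p = 0.60, adjusted 0.80), a difference of -0.08 ± 0.12 (SE). No pair passed 0.05 after adjustment over the 4. A single pair at 0.0286, the smallest exact permutation p of 4 against 4 libraries, adjusts to 0.114 over 4 pairs. Such a pair cannot pass alone, so the adjusted p cannot decide on Mcee over Mmut.

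**Figure D4:**
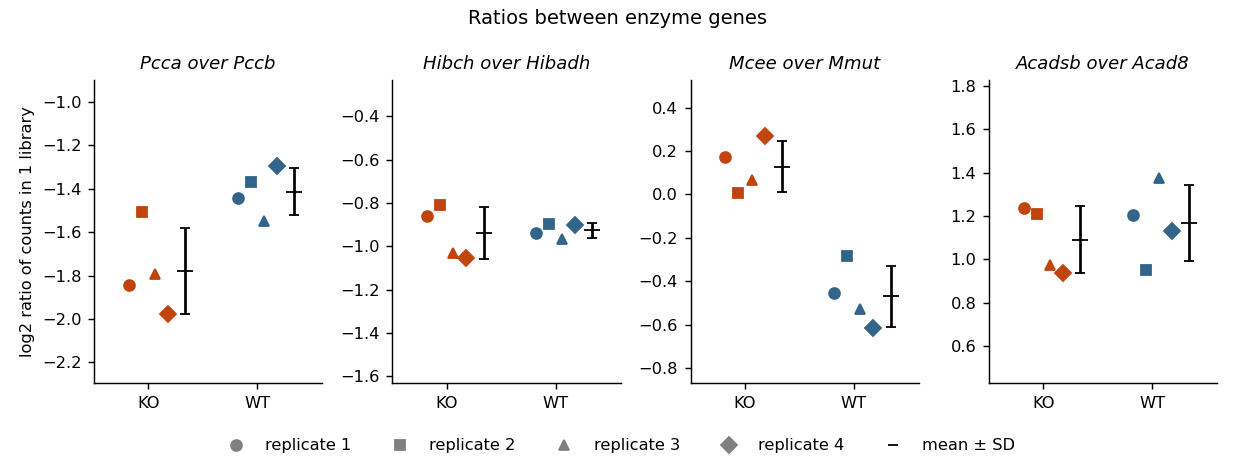
Log2 ratio of the counts of 2 enzyme genes in the same library (vertical axes, each spanning the same width) in KO (red, left) and WT (blue, right), with a symbol for each replicate number and the mean ± SD in black. Mcee over Mmut lies between 0.0040 and 0.27 in KO and between -0.61 and -0.28 in WT, and Hibch over Hibadh overlaps between the groups.

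The neighbouring genes of the pathway were counted in 8 lists with 46 genes, all tested. Of these, 43 lay lower in KO, against 49.5% of all genes tested. At an unadjusted p under 0.05, 33 were lower, against 11.1% of all genes. In edgeR with 8 libraries 0 passed an adjusted p of 0.05, and 0% of all genes did. DESeq2 called 25 lower (4.71% of all genes with an adjusted p) and limma-voom with quality weights 23 (3.62%). In the 6-library comparison 13 of the 46 fell and 0 rose (1.5% of all genes were called lower). With total library size alone 36 of the 46 lay lower, against 3333 of the 13901 genes tested. That share also stands beside the counts on that scaling for each list below.

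Upstream of both branches, all 8 genes for shared steps lay lower, 7 with total library size alone, with a median log2 fold change of -0.50. Bckdha, part of the decarboxylating enzyme of the dehydrogenase complex, had 31.2, 73.9, 65.6 and 43.9 CPM in KO and 115, 136, 102 and 143 CPM in WT. It was the member of this list that fell in the 6-library comparison (-1.48, edgeR adjusted p = 0.0333). Bcat2, the mitochondrial transaminase, differed by -0.54 ± 0.13 with 8 libraries (adjusted p = 0.105), and Slc25a44, which carries branched-chain amino acids into mitochondria, by -0.55 ± 0.17 (adjusted p = 0.143). Dld, the lipoamide dehydrogenase shared by several complexes, differed by -0.62 ± 0.16 (adjusted p = 0.115). Of the 3 genes that serve the middle of the branches, Acat1, the thiolase that ends isoleucine breakdown, fell in the 6-library comparison (-0.76, edgeR adjusted p = 0.0363). Echs1, the hydratase of both branches, differed by -0.52 ± 0.16 and Hsd17b10, the isoleucine dehydrogenase, by -0.37 ± 0.16 with 8 libraries.

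Electrons from Acad8 and Acadsb pass to the electron transfer flavoprotein and its dehydrogenase. Etfdh, that dehydrogenase, and Etfa, the alpha chain of the flavoprotein, differed by -0.87 ± 0.13 and -0.65 ± 0.15 with 8 libraries, and both fell with 6 (edgeR adjusted p = 0.0290 and 0.0413). Etfb, the beta chain, lay on the other side at 0.31 ± 0.18 (adjusted p = 0.333), with 113, 75.6, 109.9 and 142 CPM in KO and 91.0, 103, 77.0 and 84.3 CPM in WT. Its groups overlapped, and KO replicate 2 had the lowest value of all 8 libraries. With 6 libraries, which leave KO replicate 2 out, the groups did not overlap, and Etfb differed by 0.39 ± 0.14 (edgeR adjusted p = 0.136).

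Genes of cobalamin handling, not all of which serve Mmut, had a median nearer to 0. Of 10, 8 lay lower with TMM scaling (49.5% of all genes tested) and 4 with total library size alone (3333 of 13901 genes). The median was -0.21, and 0.05 with total library size alone, where that of all genes tested was 0.26. With 8 or 6 libraries edgeR called 0 of the 10. At an unadjusted p under 0.05, 3 were lower (11.1% of all genes), and DESeq2 called 2 (4.71%). Mmachc, which processes incoming cobalamin, differed by -0.62 ± 0.19, and Mmadhc, which directs it to the mitochondrion or the cytosol, by -0.50 ± 0.14 (edgeR adjusted p = 0.138 and 0.131). Mmab, which makes adenosylcobalamin, differed by -0.51 ± 0.22, and Mmaa, which loads it onto the mutase, by -0.23 ± 0.10 (adjusted p = 0.219 and 0.233; Mmaa lay at 0.02 with total library size alone). For biotin, the cofactor of Pcca, the ligase Hlcs differed by -0.31 ± 0.28 and biotinidase, Btd, by -0.40 ± 0.10 (adjusted p = 0.520 and 0.112).

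Downstream, all 6 genes around succinyl-CoA and propionyl-CoA lay lower, with a median of -0.54. All 6 were lower at an unadjusted p under 0.05 in edgeR, against 11.1% of all genes tested. Suclg2, the GTP-forming beta chain of succinyl-CoA ligase, fell with 6 libraries (-0.52, edgeR adjusted p = 0.0427). Its ATP-forming counterpart Sucla2 and the shared alpha chain Suclg1 differed by -0.70 ± 0.19 and -0.61 ± 0.20 with 8 libraries (adjusted p = 0.118 and 0.150). Acsf3, a mitochondrial acyl-CoA synthetase for malonate and methylmalonate, differed by -0.46 ± 0.14 (adjusted p = 0.132).

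The leucine branch, which does not pass through propionyl-CoA, was set beside the 9 genes. All 5 of its genes lay lower with TMM scaling, 4 with total library size alone, with a median of -0.58. In the 6-library comparison 4 fell, where 1.5% of all genes were called lower. Those 4 were Ivd, the isovaleryl-CoA dehydrogenase, Auh, a hydratase, and Mccc1 and Mccc2, the chains of the leucine carboxylase. Within a library, the mean log2 CPM of the 9 genes exceeded that of the leucine genes by 0.71, 0.81, 0.88 and 0.84 in KO replicates 1 to 4 and by 0.86, 0.84, 0.83 and 0.90 in WT replicates 1 to 4, ranges that overlap. In the carboxylase of leucine the alpha and beta chains differed by -0.58 ± 0.19 (Mccc1) and -0.67 ± 0.10 (Mccc2), beside -0.71 ± 0.19 (Pcca) and -0.34 ± 0.14 (Pccb) in the carboxylase of propionyl-CoA. Of 9 other acyl-CoA dehydrogenases, relatives of Acad8 and Acadsb, all lay lower with TMM scaling and 8 with total library size alone. Their median was -0.61. Acadl, Acadvl, Acad9 and Acad11, 4 of the 9, fell in the 6-library comparison (1.5% of all genes). Acadvl, which acts on very long chains, had the lowest fold change in that list with 8 libraries, at -1.17 ± 0.22, below both Acadsb and Acad8.

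**Figure D5:**
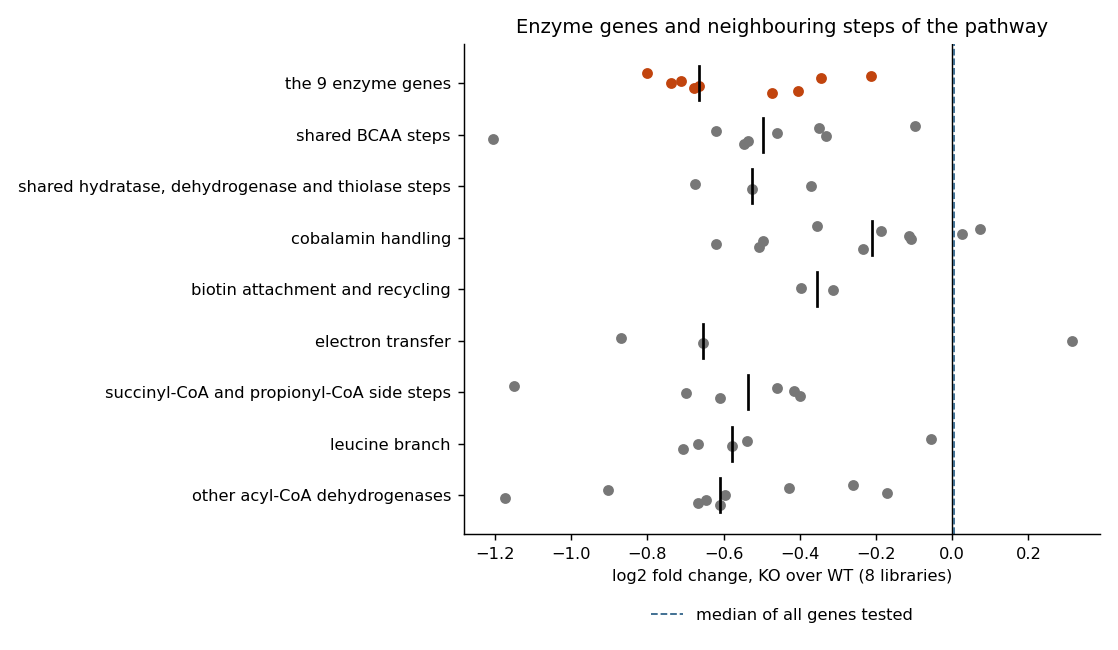
Log2 fold change, KO over WT, with 8 libraries (horizontal axis) for the 9 enzyme genes (red points) and for the genes of 8 neighbouring lists (grey points), with a black bar at each median and a dashed line at the median of all genes tested, 0.00362. The median of the 9 genes is -0.66, that of cobalamin handling is -0.21, and Etfb is the point farthest to the right, at 0.31.

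Some cell markers differed with genotype as well, and only the endothelial share of counts had ranges that did not overlap between the groups. Endothelial genes took 0.278% to 0.517% of counts in KO and 0.190% to 0.265% in WT, over 14 genes all detected in every library; 13 of the 14 had higher means in KO (median log2 difference 0.54), and KO replicate 1, the lowest library for most of the 9 genes, had the highest share. The 15 adipocyte genes took 2.74% to 3.63% in KO and 2.79% to 3.69% in WT, and the 9 brown adipocyte genes 0.626% to 0.989% in KO and 0.824% to 1.12% in WT. Gene by gene, 14 of the 15 adipocyte genes had a log2 fold change below 0 (median -0.42), as the 9 enzyme genes did; with total library size alone 10 of the 15 did (median -0.17). Of all genes tested, 49.5% lay below 0 with TMM scaling, and 3333 of 13901 did with total library size alone (median 0.26). Of the 9 brown adipocyte genes, 9 lay below 0 with TMM scaling (median -0.23) and 4 with total library size alone (median 0.02). In bulk tissue, fewer adipocytes and less of these RNAs per adipocyte cannot be told apart. Set against the mean log2 CPM of the adipocyte genes, the 9 enzyme genes lay at -3.03, -2.59, -3.05 and -3.05 in KO replicates 1 to 4 and at -2.73, -2.65, -2.87 and -2.71 in WT replicates 1 to 4. Relative to adipocyte genes, 3 KO libraries were thus below all WT libraries and KO replicate 2 was above them. Set against the brown adipocyte genes, they lay at -1.05, -0.27, -1.29 and -1.44 in KO and at -1.09, -0.95, -1.11 and -1.05 in WT, and the groups overlapped. Macrophage genes took 0.0257% to 0.0695% in KO and 0.0171% to 0.0265% in WT. T and NK cell genes took 0.00223% to 0.0219% in KO and 0.000331% to 0.00308% in WT. KO replicate 2, the library with the interferon response, set the top of both KO ranges, and other libraries reached at most 0.0349% and 0.00403%. The median log2 fold change of the macrophage genes was 0.47 with 8 libraries and 0.14 with 6. Fibroblast genes took 0.0736% to 0.105% in KO and 0.0561% to 0.133% in WT. No gene of these lists was at 0 in any library. The part of these cell types in the differences of the 9 genes was not tested.

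Over the 8 libraries, genes outside these lists whose log2 CPM closely followed the mean standardised log2 CPM of the 9 were Mrpl10 (Pearson's r = 0.993), Tmco3 (0.991), Hadh (0.988), Nln (0.987), Hadha (0.987), Aldh4a1 (0.984) and Gnpat (0.979). Mrpl10 is a protein of the mitochondrial ribosome, Hadh and Hadha act in fatty acid oxidation and Aldh4a1 in proline breakdown. Their log2 fold changes ranged from -0.77 for Hadha to -0.34 for Gnpat, with edgeR adjusted p from 0.0981 to 0.178. These r values describe 8 libraries that share the genotype difference.

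Annotated exons of 3 of the 9 genes overlap a gene on the opposite strand, and whether counts used strand is not given in the sources used here. The overlapping genes had at most 470 counts for Bbof1 beside Aldh6a1, 359 for Ggact beside Pcca and 90 for Cenpq beside Mmut, in any library.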

How the data were processed

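Polyadenylated RNA of 8 libraries was sequenced; per the labels' protocols, dUTP marked the second strand. The authors deposited raw counts per gene and library for 18395 genes. Per the submitters' processing notes the build was GRCm39; aligner, counter and annotation: not given in the sources used here. Symbols came from GENCODE M21 (18321 genes matched), in which Mmut is listed as Mut. The 9 genes, the neighbouring lists, the marker lists and the choice of the 6 libraries were made with earlier results of these data known.

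Genes were filtered with filterByExpr, leaving 13901, scaled by TMM, and tested KO against WT with edgeR 4.0.16 (robust quasi-likelihood F test, group only) in R 4.3.3, with Benjamini-Hochberg adjustment over all genes tested. SEs were derived from the F statistic. CPM uses TMM-scaled library sizes, and list means use log2 CPM with a prior count of 2. Pair ratios used exact permutation over libraries. Alternatives were DESeq2 1.42.0, limma-voom (limma 3.58.1), other scalings and filters, a replicate block and libraries left out. The tests were first checked on generated counts with known answers. In each neighbouring list, up to 4 genes with the smallest p were named, with the 8 genes most like the 9 by correlation, of which 1 is not reported here. Promoter elements were chosen after the values were seen. Promoter sequences are from RefSeq. Figures were drawn with matplotlib 3.10.9.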

Additional observations from a re-analysis of the deposited data

Results flagged for a closer look

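Values were screened in 86 sets of 4 libraries, which were the 9 genes, the named pathway genes, Fermt2, Ucp1 and the 4 ratios, each in KO and in WT. A library far from the other 3 was found in 2 of the 86 sets. Chance alone gives such a library in about 1 in 20 sets, so these 2 are no more than chance gives. Mccc2, a chain of the leucine carboxylase, had 68.6 CPM in KO replicate 3, against 57.9 to 59.6 CPM in the other KO libraries. Acad11, a relative of Acad8, had 139 CPM in KO replicate 1, against 106 to 111 CPM in the other KO libraries. None of the 9 enzyme genes and none of the 4 ratios held such a library.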

How the results depend on the processing

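With 8 libraries and an adjusted p under 0.05, edgeR called 0 of the 9 genes (0% of all genes). The count was 1 with total library size alone (Mmut, with 0.173% of all genes called lower). It was 6 with DESeq2 (4.71% lower), 6 with limma-voom with sample quality weights (3.62%) and 6 with 6 libraries (1.5%). At an adjusted p under 0.10 it was 5 (1.09%). Leaving out 1 library gave 0 to 4 calls; the 4 came without KO replicate 2 (Hibch, Hibadh, Aldh6a1 and Mmut), where 0.95% of all genes were called lower. The number with an unadjusted p under 0.05 was 8 (11.1% of all genes were lower at that level). It was 5 with total library size alone (2.42%) and 6 to 8 with 1 library left out. The number lower without overlap was 5 (7.56% of all genes), and 3 with total library size alone (1.17%). It was 8 with 6 libraries (15.3%) and 5 to 8 with 1 library left out, the 8 without WT replicate 3 (10.8%). Of 189 values of single genes under the alternatives, 188 were below 0; the exception was Mcee at 0.0365 with total library size alone. The Hibch over Hibadh difference ranged from -0.0545 to 0.026 with 1 library left out. The other filters, the other 2 scalings, the fit without robust estimation and removal of mitochondrial or muscle genes each gave 0 calls. Same-numbered libraries did not deviate together (correlations -0.05, 0.04, -0.13 and 0.22), so the numbers were not taken as pairs; with the replicate block 0 of the 9 were called and 7 had an unadjusted p under 0.05. With 3 against 3 libraries no exact test can pass 0.05.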
